A study of Drosophila melanogaster with 12 samples.

Results

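Fat body RNA of Drosophila melanogaster larvae reared on high-sugar food was sequenced in 3 libraries labelled InRi and 3 control libraries, which are 6 of the 12 libraries of the study and were chosen by their labels. The InRi larvae were offspring of males of stock 992, which carry a construct for RNA interference against the insulin receptor gene InR. The control larvae were offspring of males of stock 60000 (w1118). All mothers came from the same line, with UAS-Dcr2 and the driver r4-GAL4, so both groups carried the driver and extra Dicer-2. r4-GAL4 is active in the fat body, so the construct was aimed at that organ and not at the whole larva. Both groups were female, grew at 25 °C on food with 0.7 M sucrose, and were taken as wandering larvae of the third instar, when feeding has ended and the fat body is close to its remodelling. Fat bodies were sheared free of the larvae and collected by centrifugation, and RNA was sequenced after removal of ribosomal RNA. The labels do not say whether replicates came from separate crosses, and the p-values below then cover the spread of these libraries alone, which may be technical. The other 6 libraries are the same crosses on 0.15 M sucrose, and they enter here through the shared estimate of the spread and as a side by side view. The 2 groups differ in the stock of their fathers as well as in the construct, and these cannot be told apart.

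The fat body does the work of liver and adipose tissue in the fly: it stores triglyceride and glycogen, secretes most haemolymph proteins, and makes the antimicrobial peptides of the systemic immune response. In insulin signalling, insulin-like peptides bind the receptor InR, which acts through the substrate chico, the lipid kinase Pi3K92E and the kinases Pdk1 and Akt1. Active Akt1 keeps the transcription factor FOXO out of the nucleus and supports growth through Tor. When the pathway is quiet, FOXO enters the nucleus and raises transcription of genes that include InR itself and the lipase gene bmm.

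The count of the target gene went against the label. InR stood at 109, 163 and 148 CPM in the InRi-labelled libraries, against 56.4, 45.4 and 55.5 CPM in control (log2 fold change 1.42 ± 0.30, adjusted p = 0.0157, where ± after a fold change is its standard error). The 3 InRi-labelled libraries were all above the 3 controls. The call ended without InRi replicate 2 or 3 or control replicate 1, 2 or 3 (up to 0.0947). Whether reads of the construct itself were counted as InR was not tested, so the level of the gene's own transcript is not known. Every direction below is therefore one of the InRi-labelled libraries, and is not read as following a loss of InR transcript. Dcr-2, whose transgene both groups carry, stood at 10029, 15060.0 and 8937 CPM in the InRi-labelled libraries, against 3938, 4034 and 4556 CPM in control, which did not pass the test (log2 fold change 1.44, adjusted p = 0.221).

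CPM are read counts scaled to library size. The 3 InRi-labelled libraries held 3143289 to 5803618 counts, and the controls 872755 to 5135234, control replicate 3 being the shallowest. The first principal component of the 6 libraries, with 60.5% of the variance, separated the groups. Mitochondrial genes, those for ribosomal RNA included, took 2.54%, 0.776% and 1.64% of counts in the InRi-labelled libraries, against 4.30%, 5.39% and 3.39% in control. Genes named as ribosomal RNA took 1.398%, 0.4114% and 0.9644% of counts in the InRi-labelled libraries, against 2.438%, 2.955% and 2.075% in control. The listed fat body markers summed to 282051, 353734 and 216206 CPM in the InRi-labelled libraries, against 230373, 312373 and 263982 CPM in control, so the labelled tissue was present in all. Salivary gland markers, mostly glue protein genes, did not follow the fat body. They summed to 28.1, 14.7 and 121 CPM in the InRi-labelled libraries, against 4129, 5791 and 2735 CPM in control. Of 10 tested, 8 were called lower and all 10 had negative fold changes, and even in the InRi-labelled libraries none of the markers was at 0 in all 3. Muscle markers summed to 4658, 2046 and 4727 CPM in the InRi-labelled libraries, against 7183, 6008 and 6468 CPM in control, with 0 of 16 called and all 16 fold changes negative. The part of these markers in the results was not tested. Fewer cells of a type and less RNA per cell cannot be told apart in such bulk samples.

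Of 8662 genes tested, 469 were called at an adjusted p under 0.05 (edgeR's quasi-likelihood test with Benjamini-Hochberg adjustment), which is 5.41%. Of these, 314 were higher in the InRi-labelled libraries (3.63% of genes tested) and 155 lower (1.79%). The median log2 fold change of all genes was -0.04. The libraries did not overlap between the groups for 468 of the 469. Every InRi-labelled library was above every control for 18.5% of genes tested and below for 16.5%. The spread was estimated over all 12 libraries, of which control 0.15 M replicate 2 stands apart with few mitochondrial counts. When the 6 libraries on 0.7 M sucrose were fitted alone, 1700 genes were called (991 higher, 12.1% of the genes tested, and 709 lower, 8.67%), all 469 among them. With that 1 library left out and the other 11 fitted, 1643 genes were called (978 higher and 665 lower), again with all 469. DESeq2 called 836 genes (9.65%), 556 higher (6.42%) and 280 lower (3.23%), with 468 of the 469. With single libraries of the 0.7 M groups left out, the count fell to between 137 (without control replicate 1) and 291 (without InRi replicate 3). In each of these 6 fits, 115 of the 469 genes were called, 79 higher and 36 lower. Of the 469 genes, 143 share exonic positions with another gene in the current annotation (BDGP6), and since the strand of the counts is not given in the sources used here, their values are uncertain. Among the genes below these are, besides those said to be so, Sesn, svp, tobi, wit, HLH106, CG4592, Sap-r, CG11899, P5cr, skap, RpL27, RpL28, PGRP-SD, Dif, TepII, yellow-f, Pxn, CG12163, Cp1, Fer2LCH, Ctr1B, MTF-1, kcc, Cyp6a22, Cyp9b1, Jheh3, LysC, CG1208 and CG34279. Most calls below are given with their largest adjusted p where they hold in all 6, or with the libraries whose omission ended them.

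**Figure D1:**
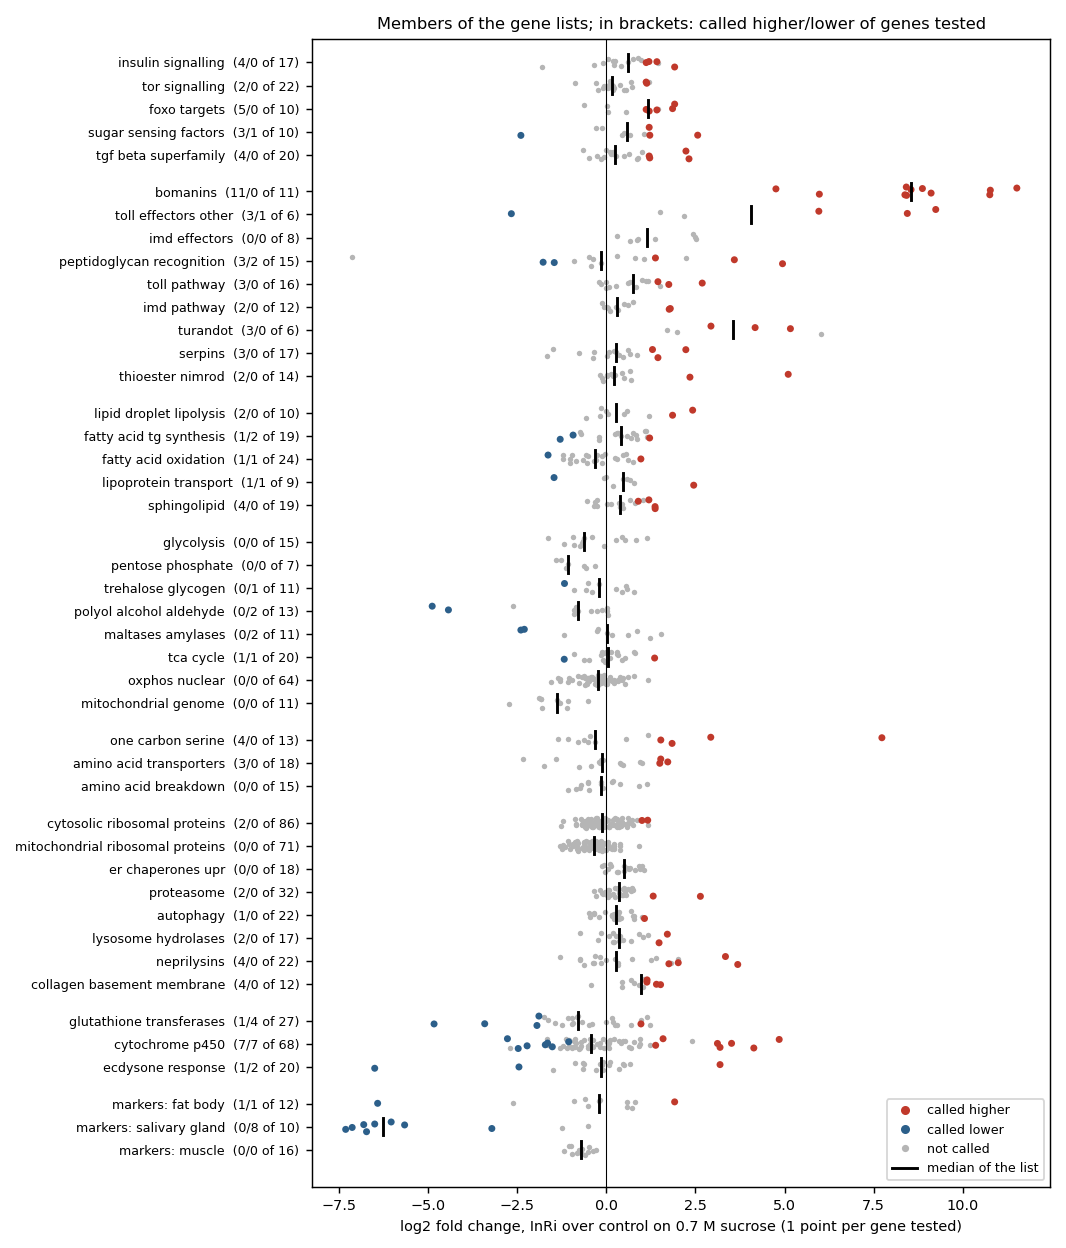
Log2 fold change of every tested gene (1 point each) in the main gene lists, with the list median as a black bar and the numbers called higher and lower in brackets. The 11 Bomanins lie far to the right and the salivary gland markers far to the left, while most metabolic and ribosomal lists lie around 0.

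Some genes of the insulin pathway, and 5 of 10 tested genes known as FOXO targets, were called higher in the InRi-labelled libraries. All gene lists here and below were chosen with earlier results of these data known, so shares called are not independent of them. Among insulin signalling genes 4 of 17 genes tested were called higher and 0 lower (median log2 fold change 0.60), namely Ilp6, InR, Pdk1 and Akt1. Of all genes 3.63% were called higher and 1.79% lower. Ilp6, the insulin-like peptide that the fat body itself secretes, stood at 574, 880.4 and 531 CPM in the InRi-labelled libraries, against 192, 150.0 and 183 CPM in control, and its groups did not overlap (log2 fold change 1.92 ± 0.37, adjusted p = 0.0103). The genes for the kinases downstream were called too. Pdk1 stood at 239, 311 and 244 CPM in the InRi-labelled libraries, against 118, 108 and 119.8 CPM in control (log2 fold change 1.20 ± 0.30, adjusted p = 0.0349). Akt1, the kinase that Pdk1 activates, stood at 106, 131 and 98.4 CPM in the InRi-labelled libraries, against 51.5, 45.9 and 57.7 CPM in control (log2 fold change 1.12 ± 0.30, adjusted p = 0.0498). The steps between receptor and kinases did not pass the test: the substrate gene chico stood at 46.4 ± 6.46 CPM in InRi-labelled and 17.4 ± 1.93 CPM in control libraries (adjusted p = 0.148) and the kinase gene Pi3K92E at 109 ± 15.6 CPM in InRi-labelled and 59.2 ± 10 CPM in control libraries (adjusted p = 0.0623), all means here being ± SD, n = 3 in each group. In all of these genes, called or not, every InRi-labelled library was above every control, as in 18.5% of all genes tested. With the 6 libraries fitted alone, 8 higher and 1 lower of 16 were called, chico among them (adjusted p = 0.00023). That fit called 12.1% of all genes higher and 8.67% lower. The Ilp6 call ended without InRi replicate 2 or control replicate 1 or 2 (up to 0.0713), and those of Pdk1 without any 1 of the 6 libraries (up to 0.148) and Akt1 without any 1 of the 6 libraries (up to 0.203).

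Among the FOXO targets 5 of 10 genes tested were called higher and 0 lower (median log2 fold change 1.16), namely bmm, Ilp6, InR, daw and Sesn. Ilp6 and InR are also among the insulin signalling calls above, and whether construct reads were counted as InR was not tested. Sesn, which encodes the Tor inhibitor sestrin, stood at 135, 183 and 137 CPM in the InRi-labelled libraries, against 68, 63.8 and 78.4 CPM in control (log2 fold change 1.12 ± 0.26, adjusted p = 0.0236). Thor, the translation repressor often used as a FOXO readout, stood at 160.3, 404 and 187 CPM in the InRi-labelled libraries, against 139, 145 and 225 CPM in control, with overlapping groups (adjusted p = 0.607). In Tor signalling 2 of 22 genes tested were called higher and 0 lower. The calls were Sesn and S6k, the kinase that Tor activates, which stood at 78.4, 71.3 and 54.3 CPM in the InRi-labelled libraries, against 32.1, 23.3 and 39.2 CPM in control (log2 fold change 1.14 ± 0.30, adjusted p = 0.046). The Sesn call ended without InRi replicate 1 or 2 or control replicate 1, 2 or 3 (up to 0.119). The S6k call ended without any 1 of the 6 libraries (up to 0.213).

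**Figure D2:**
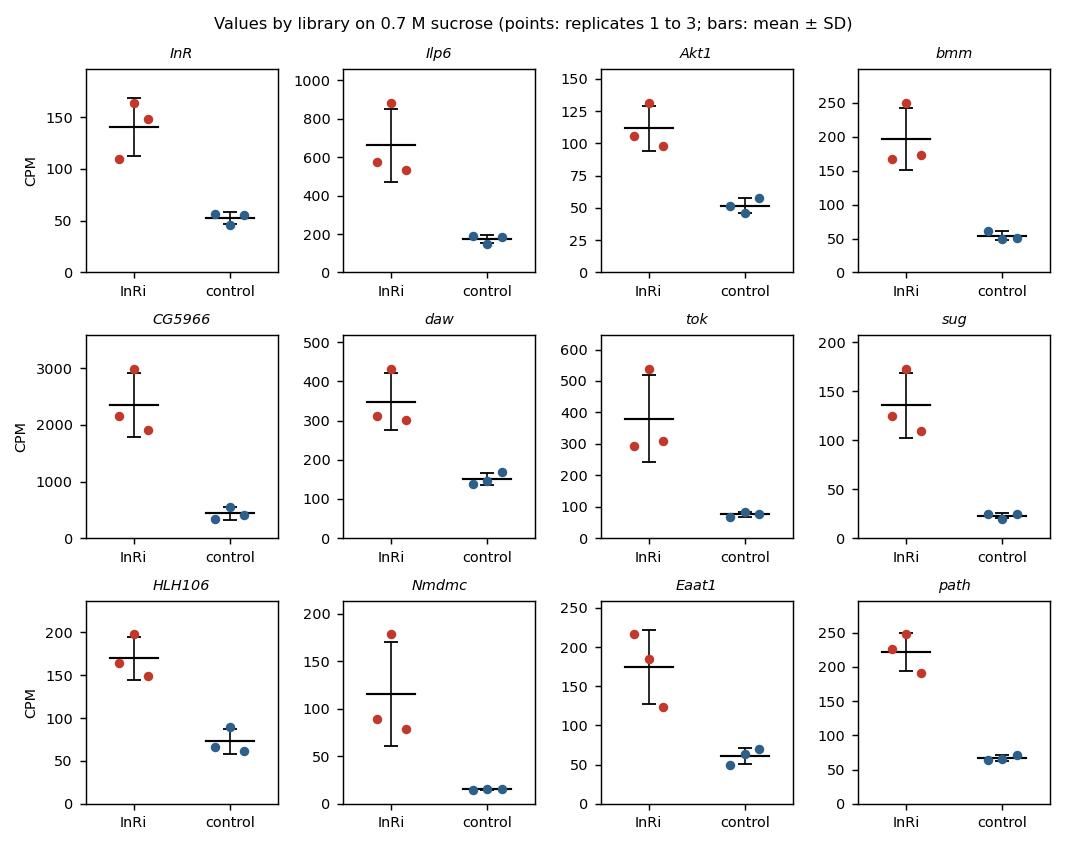
CPM of 12 genes in each library on 0.7 M sucrose, InRi-labelled libraries in red on the left and controls in blue on the right, with mean ± SD (n = 3). All 12 were picked from the called genes, of which 468 of 469 do not overlap. The lack of overlap in the panels therefore follows from that choice. InR, the target of the construct, is higher in the InRi-labelled libraries.

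In a list of sugar-responsive genes 3 of 10 genes tested were called higher and 1 lower. The 3 higher were sug, svp and daw, and the 1 lower was tobi, which encodes an enzyme. The gene sug (sugarbabe), a zinc finger factor induced by dietary sugar, stood at 125, 173 and 109 CPM in the InRi-labelled libraries, against 24.3, 19.9 and 25 CPM in control (log2 fold change 2.56 ± 0.60, adjusted p = 0.0262), though it shares exonic sequence with CG13319 on the same strand and is uncertain. The nuclear receptor gene svp stood at 177 ± 39 CPM in InRi-labelled and 76.3 ± 11.7 CPM in control libraries (log2 fold change 1.22, adjusted p = 0.0472). Mio, the table's name for the sugar sensor Mondo, stood at 248, 307 and 174 CPM in the InRi-labelled libraries, against 108, 94.6 and 148 CPM in control, which did not pass the test (adjusted p = 0.175). In the other direction, tobi, an alpha-glucosidase gene that insulin and glucagon-like signals regulate, stood at 2.31, 2.66 and 7.45 CPM in the InRi-labelled libraries, against 22.1, 16 and 26.1 CPM in control (log2 fold change -2.39 ± 0.48, adjusted p = 0.0123). The sug call ended without any 1 of the 6 libraries (up to 0.142). The svp call ended without any 1 of the 6 libraries (up to 0.209). The tobi call ended without InRi replicate 1 or 2 or control replicate 1 (up to 0.0773).

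Signalling by the TGF-beta superfamily runs through an activin branch, to which the ligand dawdle belongs, and a bone morphogenetic protein (BMP) branch. Of a list that holds genes of both branches, 4 higher and 0 lower of 20 were called (median log2 fold change 0.24). That list, and those for sphingolipids, neprilysins, galactose, polyamines, prolyl hydroxylases, ion cotransporters, innexins, ecdysteroid synthesis and glucose-methanol-choline oxidoreductases, was written after values were seen. The ligand gene daw stood at 311, 432 and 301 CPM in the InRi-labelled libraries, against 139, 146 and 169 CPM in control (log2 fold change 1.21 ± 0.27, adjusted p = 0.0229). The gene tok (tolkin), a tolloid-type protease that processes dawdle, stood at 293, 539 and 309.9 CPM in the InRi-labelled libraries, against 67.6, 84.6 and 76.2 CPM in control (log2 fold change 2.32 ± 0.37, adjusted p = 0.00361). Both genes were higher in each InRi-labelled library than in any control, and the groups did not overlap for 468 of all 469 called genes. The type II receptor gene wit stood at 69.4 ± 14 CPM in InRi-labelled and 29.4 ± 3.81 CPM in control libraries (log2 fold change 1.22, adjusted p = 0.0418), while the type I receptor gene babo, at 87 ± 16 CPM in InRi-labelled and 43.1 ± 8.01 CPM in control libraries, did not pass the test (adjusted p = 0.0691). The extracellular protein gene ltl stood at 241 ± 102 CPM in InRi-labelled and 51.3 ± 6.41 CPM in control libraries (log2 fold change 2.24, adjusted p = 0.00459). The calls of tok and ltl held in each omission (adjusted p up to 0.0454), while that of daw ended without InRi replicate 1 or 2 or control replicate 1, 2 or 3 (up to 0.116) and that of wit without any 1 of the 6 libraries (up to 0.171).

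Other secreted signals that were called were Ilp6, daw and egr, 3 of 18 tested. The gene egr, the fly's tumour necrosis factor, stood at 225, 348 and 201 CPM in the InRi-labelled libraries, against 40, 56.9 and 59.9 CPM in control (log2 fold change 2.31 ± 0.42, adjusted p = 0.00771), and its call ended without control replicate 1 (up to 0.059). In JAK/STAT signalling the inhibitor gene Socs36E was the single call of 8, at 44.5 ± 6.65 CPM in InRi-labelled and 19.1 ± 3.73 CPM in control libraries (log2 fold change 1.18, adjusted p = 0.031), lost without any 1 of the 6 libraries (up to 0.134).

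Of 10 genes of lipid droplets and lipolysis 2 were called, both higher in the InRi-labelled libraries. The gene bmm (brummer), the main triglyceride lipase of fat body lipid droplets, stood at 167, 249 and 174 CPM in the InRi-labelled libraries, against 61.7, 49.2 and 51.2 CPM in control (log2 fold change 1.86 ± 0.33, adjusted p = 0.00588). CG5966, a member of the lipase family, stood at 2159, 2992 and 1915 CPM in the InRi-labelled libraries, against 341, 559 and 417 CPM in control (log2 fold change 2.42 ± 0.38, adjusted p = 0.00303). Both calls held in each omission (adjusted p up to 0.0466). The other 8 genes tested, the lipase genes Lip3 and Lip4 among them, did not pass the test, and the list's median log2 fold change was 0.27, with 7 positive and 3 negative.

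Genes of fat synthesis were called in both directions. HLH106, which encodes the lipogenic transcription factor SREBP, stood at 164, 197 and 148 CPM in the InRi-labelled libraries, against 66.4, 89.7 and 62.1 CPM in control (log2 fold change 1.22 ± 0.26, adjusted p = 0.0173). ATPCL, whose product makes cytosolic acetyl-CoA from citrate, was lower, at 106, 82.4 and 99.7 CPM in the InRi-labelled libraries, against 153, 215 and 179.7 CPM in control (log2 fold change -0.93 ± 0.23, adjusted p = 0.0358). Dbi, an acyl-CoA binding protein gene, was lower too, at 32.2 ± 10.4 CPM in InRi-labelled and 78.3 ± 20.2 CPM in control libraries (log2 fold change -1.29, adjusted p = 0.0276). In total 1 higher and 2 lower of 19 genes of the list were called (median 0.41). With the 6 libraries fitted alone these were 6 higher and 2 lower of 19, against 12.1% and 8.67% of all genes. ATPCL shares exonic sequence with other genes on the opposite strand and, the strand of the counts being unknown, is uncertain. The HLH106 call ended without InRi replicate 1 or 2 or control replicate 1 or 3 (up to 0.1). The ATPCL call ended without any 1 of the 6 libraries (up to 0.177). The Dbi call ended without InRi replicate 2 or 3 or control replicate 1 or 2 (up to 0.153).

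Fatty acid oxidation gave 1 higher and 1 lower of 24, with Acox57D-p, a peroxisomal acyl-CoA oxidase gene, at 140.4 ± 17.7 CPM in InRi-labelled and 71.7 ± 5.33 CPM in control libraries (log2 fold change 0.97, adjusted p = 0.0482) and CG4592 at 6.29 ± 0.619 CPM in InRi-labelled and 19.8 ± 2.41 CPM in control libraries (log2 fold change -1.63, adjusted p = 0.0135). Each call is 4.17% of the list, against 3.63% of all genes called higher and 1.79% lower. Among lipid carriers, CG15828, which encodes the apolipoprotein of the lipid transfer particle (Apoltp), stood at 562, 714 and 457 CPM in the InRi-labelled libraries, against 84.6, 111 and 122 CPM in control (log2 fold change 2.45 ± 0.64, adjusted p = 0.0447). The lipocalin gene NLaz was lower, at 9.6, 11.4 and 11.5 CPM in the InRi-labelled libraries, against 29.8, 40.1 and 16.3 CPM in control (log2 fold change -1.46 ± 0.36, adjusted p = 0.0334). The Acox57D-p call ended without any 1 of the 6 libraries (up to 0.191). The CG4592 call ended without InRi replicate 1, 2 or 3 or control replicate 1 or 2 (up to 0.0658). The CG15828 call ended without any 1 of the 6 libraries (up to 0.187). The NLaz call ended without InRi replicate 1, 2 or 3 or control replicate 1 or 2 (up to 0.178).

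Of 19 sphingolipid genes 4 were called, all higher, against 3.63% of all genes. The list was written after values were seen, so this share is partly set by the choice of members. The called genes act in the making and breakdown of ceramide glycolipids. The gene lace, a subunit of the serine palmitoyltransferase that starts the route, stood at 81.1, 80.2 and 56.2 CPM in the InRi-labelled libraries, against 19.7, 40.3 and 35.9 CPM in control (log2 fold change 1.20, adjusted p = 0.0474). GlcT-1, which adds glucose to ceramide, stood at 37.7, 63.3 and 41.3 CPM in the InRi-labelled libraries, against 17.2, 20.2 and 17.4 CPM in control (log2 fold change 1.37, adjusted p = 0.0193). The gene egh, which adds the next sugar, mannose, stood at 163, 226 and 141 CPM in the InRi-labelled libraries, against 61.9, 58.5 and 86 CPM in control (log2 fold change 1.37, adjusted p = 0.0135). Sap-r, the precursor of the saposins that help break such lipids down in lysosomes, stood at 725 ± 137 CPM in InRi-labelled and 389 ± 27.6 CPM in control libraries (log2 fold change 0.90, adjusted p = 0.0498). In all of them the groups did not overlap, as in 468 of the 469 called genes. On 0.15 M sucrose the same genes had log2 fold changes of -0.31 (lace), 0.18 (GlcT-1), 0.41 (egh) and -0.17 (Sap-r). The unadjusted p of the difference between diets was 0.0051, 0.014, 0.028 and 0.0082 in that order, and none passed adjustment over all genes. The calls ended without InRi replicate 2 or control replicate 1 or 2 (up to 0.0875) for egh, InRi replicate 2 or control replicate 1, 2 or 3 (up to 0.107) for GlcT-1 and any 1 of the 6 libraries for lace (up to 0.195) and Sap-r (up to 0.211).

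Of 13 genes of polyol, alcohol and aldehyde metabolism 2 were called, both lower (median -0.78). Sodh-1, which encodes sorbitol dehydrogenase and so links the polyol sorbitol to fructose, stood at 1.6, 1.45 and 5.28 CPM in the InRi-labelled libraries, against 78.7, 102 and 50.1 CPM in control (log2 fold change -4.88 ± 0.60, adjusted p = 0.00108). CG3397, an aldo-keto reductase family gene, stood at 17.6, 16.9 and 7.76 CPM in the InRi-labelled libraries, against 308, 354 and 253 CPM in control (log2 fold change -4.42 ± 0.63, adjusted p = 0.00171). Both calls held in each omission (adjusted p up to 0.0122). Of 11 maltase and amylase genes 2 were called lower, tobi and Mal-A6, while 6 had positive fold changes and the median was 0.02. Mal-A6 stood at 24.4, 23.2 and 25.2 CPM in the InRi-labelled libraries, against 96, 156 and 105 CPM in control (log2 fold change -2.30 ± 0.41, adjusted p = 0.00619) and also held in each omission (up to 0.0404). Of 11 trehalose and glycogen genes Pgm was the single call (median -0.21), and of 5 galactose genes Pgm and Galk were called, both lower. The galactose list was written after values were seen, so its share is partly set by the choice of members. Of all genes 1.79% were called lower. Pgm, phosphoglucomutase, which joins glycogen and galactose to glycolysis, stood at 125, 74.4 and 115 CPM in the InRi-labelled libraries, against 249, 236 and 227 CPM in control (log2 fold change -1.18 ± 0.28, adjusted p = 0.0276). Galk, galactokinase, stood at 62.4, 40.6 and 36.6 CPM in the InRi-labelled libraries, against 97, 138 and 115 CPM in control (log2 fold change -1.32 ± 0.28, adjusted p = 0.0167). Pgm and Galk overlap other genes on the opposite strand and are uncertain. The Pgm call ended without any 1 of the 6 libraries (up to 0.155). The Galk call ended without InRi replicate 2 or 3 or control replicate 2 or 3 (up to 0.0937).

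The core of glycolysis and the pentose phosphate pathway lay on the low side without passing the test. Of 15 glycolytic genes 0 were called (median -0.61), and of 7 pentose phosphate genes 0 were called (median -1.06). Gapdh2 stood at 356, 222 and 240.0 CPM in the InRi-labelled libraries, against 537, 691 and 644 CPM in control (adjusted p = 0.0628). Tpi, triosephosphate isomerase, stood at 224, 116 and 147 CPM in the InRi-labelled libraries, against 470.4, 562 and 487 CPM in control (adjusted p = 0.196). Pgd, the second dehydrogenase of the pentose route, stood at 152, 99.6 and 73.6 CPM in the InRi-labelled libraries, against 208, 313 and 261 CPM in control (adjusted p = 0.228). In each of these genes every InRi-labelled library was below every control, as in 16.5% of all genes tested. With the 6 libraries fitted alone, 0 higher and 6 lower of 15 glycolytic genes and 0 higher and 5 lower of 7 pentose phosphate genes were called, against backgrounds of 12.1% higher and 8.67% lower.

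In serine and one-carbon metabolism, which supplies folate-bound carbon, 4 of 13 genes tested were called higher and 0 lower. Nmdmc, the mitochondrial methylenetetrahydrofolate dehydrogenase, stood at 89.3, 178 and 78.6 CPM in the InRi-labelled libraries, against 14.6, 15.5 and 15.2 CPM in control (log2 fold change 2.93 ± 0.32, adjusted p = 0.000847), and the call held in each omission (adjusted p up to 0.00811). It overlaps Mst85C on the opposite strand and is uncertain. Serine is made in the cell by a short chain of enzymes, of which the last 2 were called. CG11899, phosphoserine aminotransferase, stood at 370.1, 434 and 294 CPM in the InRi-labelled libraries, against 84.6, 125 and 95.8 CPM in control (log2 fold change 1.85 ± 0.37, adjusted p = 0.012). The gene aay (astray), phosphoserine phosphatase, stood at 279, 249.9 and 151 CPM in the InRi-labelled libraries, against 64.9, 61.4 and 112 CPM in control (log2 fold change 1.53 ± 0.35, adjusted p = 0.025). CG7560, a methylenetetrahydrofolate reductase gene, stood at 10.7, 2.9 and 4.35 CPM in the InRi-labelled libraries and had 0 counts in control, at least 23.2-fold higher against a floor of 3 counts over the group. It passed the filter on low counts only through libraries other than these controls. The median log2 fold change of the list was -0.33, negative where the called genes are positive. The CG11899 call ended without InRi replicate 2 or control replicate 1 or 3 (up to 0.0775). The aay call ended without InRi replicate 1 or 2 or control replicate 1 or 2 (up to 0.136). The CG7560 call ended without control replicate 1 or 2 (up to 0.0885).

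Of 18 amino acid transporter genes 3 were called, all higher: Eaat1, path and mnd. Eaat1, a glutamate transporter gene, stood at 216, 184 and 123 CPM in the InRi-labelled libraries, against 48.9, 64 and 69.7 CPM in control (log2 fold change 1.53 ± 0.27, adjusted p = 0.006). P5cr, a gene chosen after its values were seen that encodes the last enzyme from glutamate to proline, was lower at 11.8 ± 2.18 CPM in InRi-labelled and 23.9 ± 5.99 CPM in control libraries (log2 fold change -1.05, adjusted p = 0.0405). The gene path (pathetic), a transporter of the family that couples amino acids to Tor, stood at 227, 247 and 192 CPM in the InRi-labelled libraries, against 64.5, 65.4 and 71.9 CPM in control (log2 fold change 1.73 ± 0.39, adjusted p = 0.0226), and mnd (minidiscs) stood at 15.5 ± 2.75 CPM in InRi-labelled and 5.05 ± 1.55 CPM in control libraries (log2 fold change 1.50, adjusted p = 0.0214). Of 7 polyamine genes SpdS, which encodes spermidine synthase, was the single call, lower at 40, 28 and 26.7 CPM in the InRi-labelled libraries, against 127, 182 and 122 CPM in control (log2 fold change -2.18 ± 0.36, adjusted p = 0.00427), with overlapping exons of Scm on the other strand. The polyamine list was written after values were seen. The call of SpdS held in each omission (adjusted p up to 0.0307). The Eaat1 call ended without control replicate 1 (up to 0.0514). The path call ended without InRi replicate 1 or 2 or control replicate 1, 2 or 3 (up to 0.112). The mnd call ended without any 1 of the 6 libraries (up to 0.0928). The P5cr call ended without any 1 of the 6 libraries (up to 0.208).

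In the tricarboxylic acid cycle the 2 alternative beta subunits of succinyl-CoA synthetase were called in opposite directions. The gene skap stood at 614, 576 and 453 CPM in the InRi-labelled libraries, against 199.5, 216 and 225 CPM in control (log2 fold change 1.36 ± 0.26, adjusted p = 0.00917). Sucb stood at 122, 111 and 99.99 CPM in the InRi-labelled libraries, against 219, 293 and 241 CPM in control (log2 fold change -1.18 ± 0.26, adjusted p = 0.0194). They were the 2 calls of 20 (median 0.05), 5% of the list in each direction, against 3.63% of all genes higher and 1.79% lower. A list of oxidative phosphorylation genes, most of them nuclear, gave 0 calls of 64 (median -0.23). It also holds mt:CoI, mt:CoII and mt:CoIII, which are in the mitochondrial genome list too. The 11 mitochondrial genome genes tested also gave 0, yet all 11 had negative fold changes (median -1.39). Against 8.67% of all genes with the 6 libraries fitted alone, 10 of the mitochondrial genome genes were called lower. All 37 listed genes of the mitochondrial genome, tested or not and with its ribosomal RNA genes, summed to 26183, 9630.3 and 16027 CPM in the InRi-labelled libraries, against 39767, 61371 and 32242 CPM in control, with no overlap. The skap call ended without control replicate 1 or 2 (up to 0.059). The Sucb call ended without any 1 of the 6 libraries (up to 0.0964).

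Cytosolic ribosomal protein genes gave 2 higher and 0 lower of 86 (median log2 fold change -0.12), near the background of all genes. The calls were RpL27 (log2 fold change 1.16, adjusted p = 0.0249) and RpL28 (522 ± 37.1 CPM in InRi-labelled and 260.0 ± 35.5 CPM in control libraries, adjusted p = 0.0391), each lost without any 1 of the 6 libraries (up to 0.122 and 0.157). Mitochondrial ribosomal protein genes gave 0 of 71 (median -0.35), with 57 negative and 14 positive fold changes, against 4616 and 4046 of all genes. Every InRi-labelled library was below every control in 16 of the 71 and above in 0, against 16.5% and 18.5% of all genes. Of 18 genes of endoplasmic reticulum chaperones and the unfolded protein response 0 were called (median 0.49). With the 6 libraries fitted alone 7 were called higher, against 12.1% of all genes in that fit.

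Genes of the systemic immune response held 11 of the 15 largest rises. The Toll pathway runs from recognition proteins through a protease cascade to the ligand spz, the receptor Tl and the factors Dif and dl, which switch on Bomanins, Daisho peptides and drosomycin (Drs). Among recognition genes 3 of 15 genes tested were called higher and 2 lower. PGRP-SC2, whose amidase product breaks down peptidoglycan, stood at 566, 572 and 588 CPM in the InRi-labelled libraries, against 27.8, 60.7 and 55.5 CPM in control (log2 fold change 3.59 ± 0.45, adjusted p = 0.00108). PGRP-LB, a second amidase gene, stood at 31.4 ± 5.89 CPM in InRi-labelled and 11.6 ± 3.65 CPM in control libraries (log2 fold change 1.38, adjusted p = 0.0247). PGRP-SD, which encodes a sensor of bacterial peptidoglycan, was lower, at 24.4, 25.1 and 21.7 CPM in the InRi-labelled libraries, against 67.2, 111 and 63.2 CPM in control (log2 fold change -1.77 ± 0.29, adjusted p = 0.00427). PGRP-SB1 was lower too (4.39 ± 0.841 CPM in InRi-labelled and 11.8 ± 3.07 CPM in control libraries, adjusted p = 0.0475). CG13422, a relative of the Gram-negative binding proteins, had 84 counts in the InRi-labelled libraries and 2 in control (34-fold, counting interval 9.12 to 285, adjusted p = 0.00967). PGRP-SC2 and PGRP-SD held in each omission (adjusted p up to 0.0279). The PGRP-LB call ended without InRi replicate 1 or 2 or control replicate 1 or 3 (up to 0.13). The PGRP-SB1 call ended without any 1 of the 6 libraries (up to 0.215). The CG13422 call ended without control replicate 1 or 2 (up to 0.0737).

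Within the Toll pathway 3 of 16 genes tested were called higher and 0 lower (median 0.75). With the 6 libraries fitted alone these were 9 higher and 0 lower of 16, against 12.1% and 8.67% of all genes. The receptor gene Tl stood at 327, 439.8 and 253 CPM in the InRi-labelled libraries, against 47.1, 53.6 and 57.7 CPM in control (log2 fold change 2.69 ± 0.57, adjusted p = 0.0166). Dif, the NF-kappaB factor of the fat body's Toll response, stood at 32.2, 35 and 32.9 CPM in the InRi-labelled libraries, against 8.08, 11.7 and 9.8 CPM in control (log2 fold change 1.75 ± 0.30, adjusted p = 0.00472). The ligand gene spz and the factor gene dl did not pass the test, at 26.9 ± 2.97 CPM in InRi-labelled and 9.79 ± 2.22 CPM in control libraries (adjusted p = 0.153) and 44.7 ± 3.58 CPM in InRi-labelled and 19.6 ± 2.91 CPM in control libraries (adjusted p = 0.0685), though their groups did not overlap. The gene nec (necrotic), a serpin that restrains the cascade above Toll, stood at 93.7, 150.3 and 102 CPM in the InRi-labelled libraries, against 38.2, 49.6 and 38.1 CPM in control (log2 fold change 1.45 ± 0.35, adjusted p = 0.0306). In the Imd pathway 2 of 12 genes tested were called higher and 0 lower: Rel, its NF-kappaB factor, at 296, 307 and 287 CPM in the InRi-labelled libraries, against 94.2, 78.9 and 82.8 CPM in control (log2 fold change 1.80 ± 0.46, adjusted p = 0.0404), and BG4, the adaptor Fadd, at 9.17 ± 0.955 CPM in InRi-labelled and 3.04 ± 1.15 CPM in control libraries (log2 fold change 1.77, adjusted p = 0.0163). Dif held in each omission (up to 0.0483). The Tl call ended without InRi replicate 2 or control replicate 1, 2 or 3 (up to 0.1). The nec call ended without any 1 of the 6 libraries (up to 0.144). The Rel call ended without any 1 of the 6 libraries (up to 0.168). The BG4 call ended without InRi replicate 1 or 2 or control replicate 1 or 2 (up to 0.118).

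**Figure D3:**
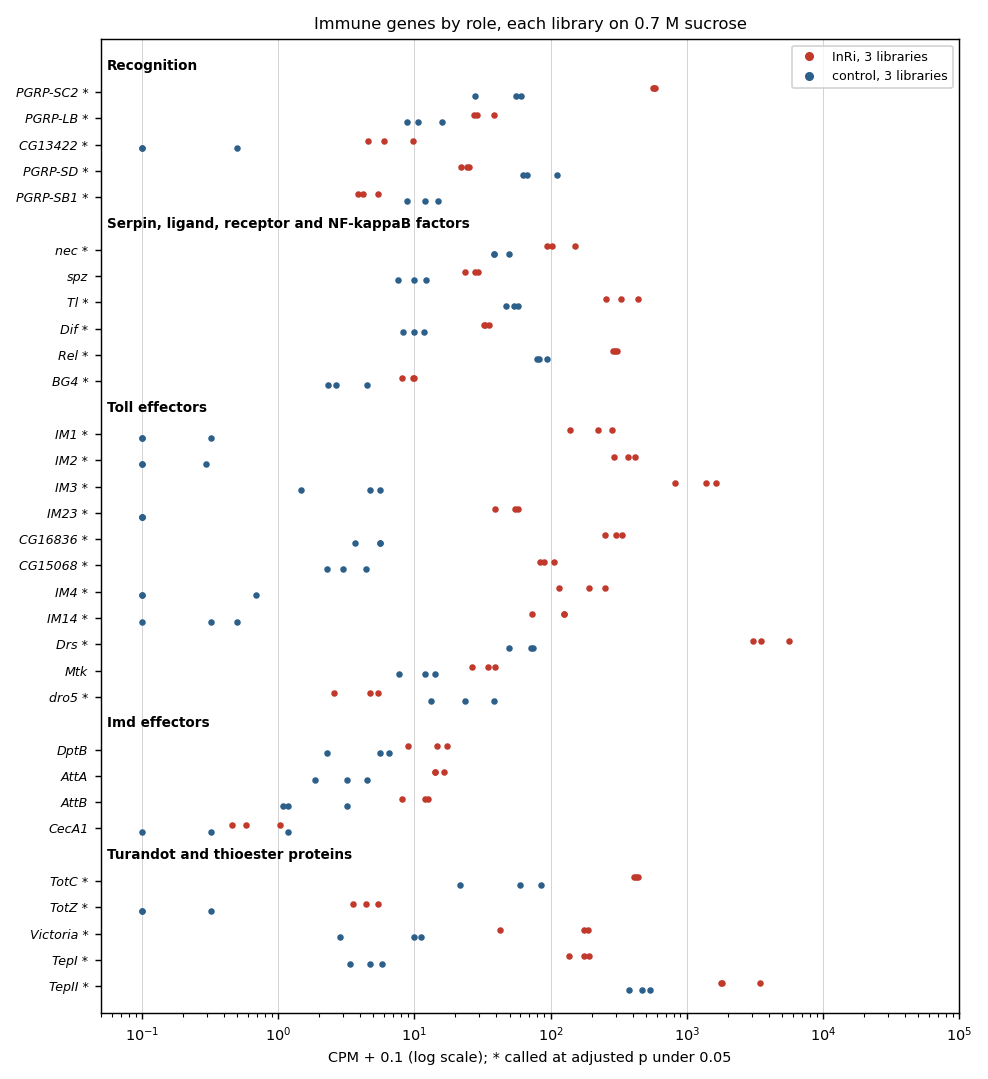
CPM + 0.1 on a log axis for immune genes ordered by role, with the 3 InRi-labelled libraries in red above the 3 controls in blue. The Bomanins, IM4, IM14 and Drs lie far to the right in the InRi-labelled libraries, while PGRP-SD, PGRP-SB1 and dro5 lie to the left.

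All 11 Bomanin genes tested were called higher, of 12 listed. Over the 3 controls IM23, CG18107, CG43202 and CG5791 had 0 counts, and IM1 and IM2 had 1 count each. These passed the filter on low counts only through other libraries, so the share called is partly set by the filter. These short secreted peptides are needed for Toll-dependent resistance to infection. IM3 (BomS3) stood at 1397, 1652 and 821 CPM in the InRi-labelled libraries, against 1.38, 4.65 and 5.45 CPM in control (log2 fold change 8.55, adjusted p = 0.00972). IM2 (BomS2) stood at 369, 417 and 294 CPM in the InRi-labelled libraries and had 1 count in control (3841-fold, counting interval 689 to 151759). IM23 (BomBc1) stood at 55.1, 57.5 and 38.8 CPM in the InRi-labelled libraries and had 0 counts in control, at least 182-fold higher against 3 counts over the group. CG15068 (BomS6), with 89.1, 83.1 and 106 CPM in the InRi-labelled libraries, against 4.34, 2.88 and 2.18 CPM in control, had the smallest log2 fold change of the 11 (4.76). CG15067 and CG18107 overlap each other on opposite strands and are uncertain. Bomanins are close copies of each other, and how shared reads were counted is not given in the sources used here. Without control replicate 2, 6 of the 11 stayed called, and without control replicate 1, 7: the calls lost were IM3, CG15065, CG16836 and CG5791 in both (adjusted p up to 0.116), with IM1 lost in the first (up to 0.0519). The other 6 held in each omission (up to 0.0458). Among the other Toll effectors, the Daisho genes IM4 (187 ± 68.5 CPM in InRi-labelled and 0.197 ± 0.341 CPM in control libraries) and IM14 (108 ± 30.1 CPM in InRi-labelled and 0.205 ± 0.198 CPM in control libraries) had 3 counts each in control. The fold was 674-fold, counting interval 230.2 to 3268 for IM4 and 394-fold, counting interval 134 to 1911 for IM14. Drs stood at 3528, 5607 and 3042 CPM in the InRi-labelled libraries, against 49.5, 74.7 and 71.9 CPM in control (log2 fold change 5.96 ± 0.72, adjusted p = 0.00108). The calls of IM4, IM14 and Drs held in each omission (up to 0.026). The relative dro5 (Drsl5) was lower, at 2.49, 5.32 and 4.66 CPM in the InRi-labelled libraries, against 23.3, 38.1 and 13.1 CPM in control (log2 fold change -2.66 ± 0.57, adjusted p = 0.0183), a call that ended without InRi replicate 1, 2 or 3 or control replicate 1 or 2 (up to 0.106).

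The Imd effectors, peptides aimed at Gram-negative bacteria, gave 0 calls of 8, with a median of 1.13. AttA stood at 14.1, 14 and 16.5 CPM in the InRi-labelled libraries, against 1.77, 3.1 and 4.36 CPM in control (adjusted p = 0.0944) and DptB at 13.6 ± 4.34 CPM in InRi-labelled and 4.71 ± 2.24 CPM in control libraries (adjusted p = 0.0868). With the 6 libraries fitted alone 4 of 8 were called higher, against 12.1% of all genes in that fit. Of 6 Turandot stress protein genes 3 were called higher, TotC at 424, 437 and 409 CPM in the InRi-labelled libraries, against 21.7, 84.9 and 59.9 CPM in control (log2 fold change 2.94 ± 0.63, adjusted p = 0.0173), Victoria at 136 ± 80.8 CPM in InRi-labelled and 7.88 ± 4.48 CPM in control libraries (log2 fold change 4.17, adjusted p = 0.0174) and TotZ with 59 counts in InRi-labelled and 1 count in control libraries (47.7-fold, counting interval 8.24 to 1917). Among thioester proteins and nimrods, which bind microbes, 2 of 14 were called. TepI stood at 191, 174 and 136 CPM in the InRi-labelled libraries, against 5.72, 4.65 and 3.27 CPM in control (log2 fold change 5.10 ± 0.87, adjusted p = 0.00486, up to 0.0462 in the omissions) and TepII at 1829.7, 3427 and 1782 CPM in the InRi-labelled libraries, against 376, 535 and 472 CPM in control (log2 fold change 2.35, adjusted p = 0.0233). Of 17 serpin genes 3 were called higher, nec, Spn88Eb (345 ± 65.1 CPM in InRi-labelled and 73.6 ± 19.5 CPM in control libraries, log2 fold change 2.23, adjusted p = 0.0132) and Spn28D (51.2 ± 9.26 CPM in InRi-labelled and 20.3 ± 6.71 CPM in control libraries, log2 fold change 1.30, adjusted p = 0.0232). Among melanization genes Spn28D was the call in the higher direction, and yellow-f was lower, at 94.9 ± 13 CPM in InRi-labelled and 239.7 ± 76 CPM in control libraries (log2 fold change -1.34, adjusted p = 0.0214). The TotC call ended without InRi replicate 1 or 2 or control replicate 1 or 3 (up to 0.0916). The Victoria call ended without InRi replicate 2 or control replicate 1, 2 or 3 (up to 0.103). The TotZ call ended without control replicate 1 (up to 0.0594). The TepII call ended without InRi replicate 1 or 2 or control replicate 1, 2 or 3 (up to 0.122). The Spn88Eb call ended without InRi replicate 2 or control replicate 1, 2 or 3 (up to 0.0895). The Spn28D call ended without InRi replicate 1 or 2 or control replicate 1 or 3 (up to 0.124). The yellow-f call ended without InRi replicate 1, 2 or 3 or control replicate 1 or 2 (up to 0.111).

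The fat body secretes basement membrane proteins into the haemolymph. Of their genes 4 higher and 0 lower of 12 were called (median 0.98). With the 6 libraries fitted alone these were 9 higher and 0 lower of 12, against 12.1% and 8.67% of all genes. The laminin chain gene LanA stood at 859, 1356 and 868 CPM in the InRi-labelled libraries, against 451, 497 and 449.8 CPM in control (log2 fold change 1.14, adjusted p = 0.0481), and LanB2 stood at 177, 295 and 177 CPM in the InRi-labelled libraries, against 88.3, 107 and 98 CPM in control (log2 fold change 1.15, adjusted p = 0.0364). InRi replicate 2 was the highest library for both. Plod, the lysyl hydroxylase that modifies collagen, stood at 174 ± 35 CPM in InRi-labelled and 65.2 ± 12.2 CPM in control libraries (log2 fold change 1.41, adjusted p = 0.0473). Pxn, which encodes peroxidasin and is also a hemocyte marker, stood at 686, 711 and 577 CPM in the InRi-labelled libraries, against 140.4, 272 and 276 CPM in control (log2 fold change 1.52, adjusted p = 0.0148). It was the single call of 12 hemocyte markers, which had a median of -0.01 and summed to 1027, 967 and 988 CPM in the InRi-labelled libraries, against 574, 637 and 783 CPM in control. That sum includes Pxn, which was its largest part in each InRi-labelled library, so it does not show a rise of the other markers. Of the 12 markers, 6 had positive and 6 negative fold changes. The part of the hemocyte markers in the result was not tested. The calls ended without InRi replicate 1 or 2 or control replicate 1 (up to 0.0725) for Pxn and without any 1 of the 6 for LanA (up to 0.214), LanB2 (up to 0.174) and Plod (up to 0.179).

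Autophagy and proteasome genes were called higher at shares of 4.55% and 6.25%, near the 3.63% of all genes. Of 17 lysosomal hydrolase genes 2 were called, both cathepsins (11.8%): CG12163 (cathepsin F) at 301, 432 and 309 CPM in the InRi-labelled libraries, against 99.4, 132 and 84.9 CPM in control (log2 fold change 1.71 ± 0.29, adjusted p = 0.00463) and Cp1 (cathepsin L) at 1254, 1335 and 1024 CPM in the InRi-labelled libraries, against 321, 585 and 387 CPM in control (log2 fold change 1.48 ± 0.32, adjusted p = 0.0181). Autophagy gave 1 of 22, CG8678 (Atg18b) at 96.7 ± 16.8 CPM in InRi-labelled and 46.3 ± 4.6 CPM in control libraries (log2 fold change 1.07, adjusted p = 0.0259). The proteasome gave 2 of 32, Rpn6 at 250.1 ± 31.9 CPM in InRi-labelled and 101 ± 16.5 CPM in control libraries (log2 fold change 1.32, adjusted p = 0.00994) and Rpt6R at 5.95 ± 2.59 CPM in InRi-labelled and 0.698 ± 0.607 CPM in control libraries (log2 fold change 2.64, adjusted p = 0.0305). Neprilysins, membrane metallopeptidases that cut peptides, gave 4 higher of 22 (18.2%) in a list written after values were seen, with CG9780 at 104, 37 and 46.3 CPM in the InRi-labelled libraries, against 5.32, 5.76 and 8.71 CPM in control (log2 fold change 3.34 ± 0.47, adjusted p = 0.00165) and CG5527 at 44.1, 31.2 and 23.9 CPM in the InRi-labelled libraries, against 6.31, 8.64 and 10.9 CPM in control (log2 fold change 2.02 ± 0.34, adjusted p = 0.00427) holding in each omission (up to 0.0464), as did CG12163 (up to 0.0442). The others ended without InRi replicate 1 or 2 or control replicate 1 or 3 (up to 0.109) for Cp1, InRi replicate 1 or 2 or control replicate 1, 2 or 3 (up to 0.131) for CG8678, control replicate 1 (up to 0.0683) for Rpn6, InRi replicate 2 or 3 or control replicate 1, 2 or 3 (up to 0.145) for Rpt6R, and control replicate 1 for CG8358 (up to 0.0502) and CG14523 (up to 0.0638).

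Detoxifying enzymes were called in both directions. Of 27 glutathione transferase genes 4 were called lower and 1 higher (median -0.79). GstD10 stood at 3.91, 1.69 and 2.17 CPM in the InRi-labelled libraries, against 60.3, 101 and 67.5 CPM in control (log2 fold change -4.83 ± 0.58, adjusted p = 0.00108). GstD9 stood at 3.2, 2.9 and 1.86 CPM in the InRi-labelled libraries, against 23.9, 34.8 and 28.3 CPM in control (log2 fold change -3.41 ± 0.40, adjusted p = 0.000958). GstD1 stood at 115, 119.6 and 117 CPM in the InRi-labelled libraries, against 348, 589 and 364 CPM in control (log2 fold change -1.89 ± 0.32, adjusted p = 0.00475). These 3 held in each omission (adjusted p up to 0.0317). GstE8 (8.12 ± 0.768 CPM in InRi-labelled and 30.7 ± 8.2 CPM in control libraries) and, in the other direction, CG1702 (103 ± 1.4 CPM in InRi-labelled and 52.9 ± 7.89 CPM in control libraries) had adjusted p of 0.0354 and 0.0228 and ended without any 1 of the 6 libraries (up to 0.164 and 0.124). Of 68 P450 genes, which oxidise toxins, lipids and hormones, 7 were called higher and 7 lower. Cyp9b2 was lower, at 47.5, 47.9 and 43.2 CPM in the InRi-labelled libraries, against 279, 432 and 231 CPM in control (log2 fold change -2.77 ± 0.38, adjusted p = 0.00148). Cyp4e3 was higher, at 1832, 1405 and 822 CPM in the InRi-labelled libraries, against 107, 146 and 217 CPM in control (log2 fold change 3.12 ± 0.45, adjusted p = 0.00183), and so was Cyp4p3, at 30.4, 19.6 and 18.3 CPM in the InRi-labelled libraries, against 0.986, 0.443 and 1.09 CPM in control (log2 fold change 4.85 ± 0.67, adjusted p = 0.00157). All 3 held in each omission (up to 0.0214).

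**Figure D4:**
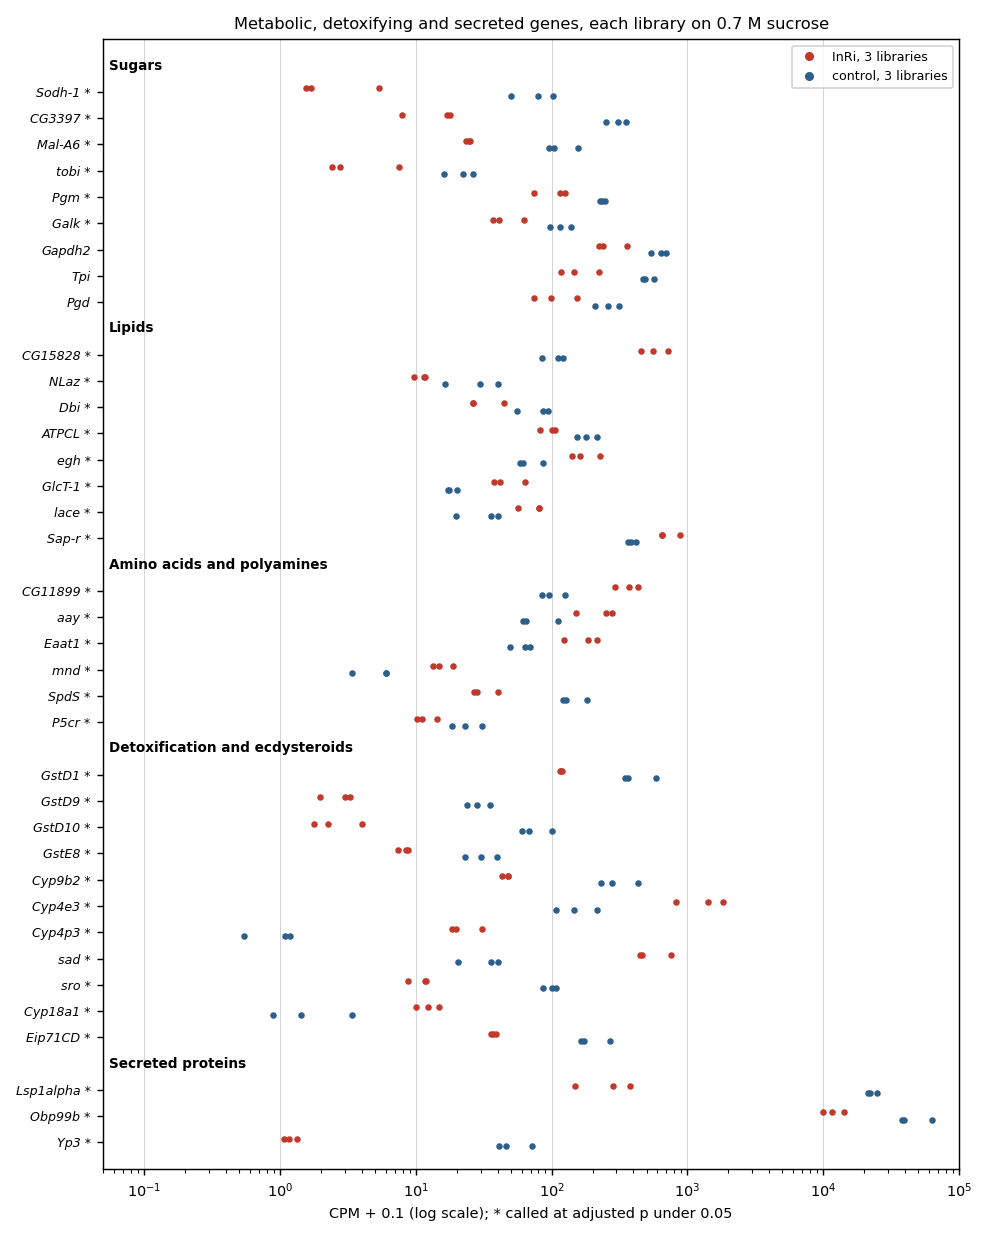
CPM + 0.1 on a log axis for metabolic, detoxifying and secreted genes, with the 3 InRi-labelled libraries in red above the 3 controls in blue. The 2 groups are widely separated for Sodh-1, CG3397, GstD10, sad, Lsp1alpha and Yp3.

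Of 9 ecdysteroid synthesis genes tested, 1 was called higher and 1 lower, and 7 were not called (median log2 fold change -0.46). Of all genes 3.63% were called higher and 1.79% lower. The list was written after values were seen. Ecdysteroids are the steroid hormones that time moulting, made mainly in the prothoracic gland. The gene sad (shadow), which encodes a late step of ecdysone synthesis, stood at 751, 465 and 451 CPM in the InRi-labelled libraries, against 20.5, 35.4 and 40.3 CPM in control (log2 fold change 4.14 ± 0.61, adjusted p = 0.00224). The gene sro (shroud), an earlier step, was lower, at 11.7, 11.6 and 8.69 CPM in the InRi-labelled libraries, against 86.2, 107 and 100.19 CPM in control (log2 fold change -3.18 ± 0.30, adjusted p = 0.00056). Both overlap another gene on the opposite strand (CG6962 and Rnb) and are uncertain. Cyp18a1, which inactivates ecdysteroids, stood at 12.1, 14.7 and 9.94 CPM in the InRi-labelled libraries, against 0.789, 1.33 and 3.27 CPM in control (log2 fold change 3.19 ± 0.60, adjusted p = 0.00896). Of 20 ecdysone response genes 1 was called higher (Cyp18a1) and 2 lower. Eip71CD, an ecdysone-induced methionine sulfoxide reductase gene, stood at 35.8, 37 and 38.8 CPM in the InRi-labelled libraries, against 165, 268 and 173 CPM in control (log2 fold change -2.45 ± 0.31, adjusted p = 0.00108), and the glue gene Sgs3 is also a salivary gland marker. The calls of sad, sro and Eip71CD held in each omission (adjusted p up to 0.0252), and that of Cyp18a1 ended without control replicate 1 or 2 (up to 0.0835).

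Among 6 larval serum protein genes, made by the fat body in bulk before pupation, Lsp1alpha was the single call. It encodes a subunit of the larval storage hexamerin and stood at 149, 285 and 375 CPM in the InRi-labelled libraries, against 22139, 25066 and 21422 CPM in control (log2 fold change -6.41 ± 0.59, adjusted p = 0.00056), a call that held in each omission (up to 0.00547). Of the 6 genes, 4 had negative and 2 positive fold changes (median -0.56). Lsp1beta, Fbp1 and Fbp2 had log2 fold changes of -0.52, -0.60 and -0.91 (adjusted p = 0.619, 0.595 and 0.279). The 2 with positive fold changes did not pass the test either. Lsp1gamma stood at 61461, 65783 and 38496 CPM in the InRi-labelled libraries, against 28024, 35671 and 31281 CPM in control (adjusted p = 0.561) and Lsp2 at 127581, 173806 and 113078 CPM in the InRi-labelled libraries, against 68436, 101412 and 83179 CPM in control (adjusted p = 0.5). Obp99b, an odorant-binding family protein abundant in fat body, stood at 11583, 14328 and 9997 CPM in the InRi-labelled libraries, against 38158, 62836 and 39366 CPM in control (log2 fold change -1.97 ± 0.44, adjusted p = 0.0222), and ended without any 1 of the 6 libraries (up to 0.118). The yolk protein gene Yp3 stood at 1.07, 0.967 and 1.24 CPM in the InRi-labelled libraries, against 72.2, 40.8 and 45.7 CPM in control (log2 fold change -5.58 ± 0.81, adjusted p = 0.00199), held in each omission (up to 0.0166).

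Of 14 metal homeostasis genes 2 were called higher and 2 lower, with 7 positive and 7 negative fold changes (median 0.08). The ferritin light chain gene Fer2LCH stood at 556, 638 and 442 CPM in the InRi-labelled libraries, against 133, 248 and 211 CPM in control (log2 fold change 1.47 ± 0.29, adjusted p = 0.0114). The metallothionein gene MtnA was lower, at 41.1, 35.5 and 85.4 CPM in the InRi-labelled libraries, against 391, 717 and 161 CPM in control (log2 fold change -2.98 ± 0.59, adjusted p = 0.0114). The copper importer gene Ctr1B was lower, at 26.8 ± 4.41 CPM in InRi-labelled and 95.8 ± 44.9 CPM in control libraries (log2 fold change -1.85, adjusted p = 0.0423), while MTF-1, the factor that controls both MtnA and Ctr1B, was higher (40.4 ± 5.7 CPM in InRi-labelled and 21.4 ± 1.31 CPM in control libraries, log2 fold change 0.92, adjusted p = 0.0297). Of 5 cation-chloride cotransporter genes 2 were called, both higher (median 0.86), in the list written after values were seen. The gene kcc stood at 63.9, 90.1 and 60.6 CPM in the InRi-labelled libraries, against 18.9, 20.8 and 16.3 CPM in control (log2 fold change 1.91 ± 0.24, adjusted p = 0.00108) and Ncc69 at 108, 115 and 99.7 CPM in the InRi-labelled libraries, against 37.1, 40.3 and 30.5 CPM in control (log2 fold change 1.56 ± 0.22, adjusted p = 0.00154), both held in each omission (up to 0.0165). Both had small fold changes on 0.15 M sucrose (0.27 and 0.14, unadjusted p of the difference 0.00028 and 0.00043), and neither passed adjustment over all genes. Of 24 tetraspanins 3 were called higher and 1 lower, with Tsp42Eg at 88.6, 78.3 and 75.8 CPM in the InRi-labelled libraries, against 0.986, 1.99 and 2.18 CPM in control (log2 fold change 5.67 ± 0.64, adjusted p = 0.000847), which held in each omission (up to 0.00958). The Fer2LCH call ended without InRi replicate 2 or control replicate 1 (up to 0.065). The MtnA call ended without InRi replicate 1 or 2 or control replicate 2 (up to 0.0719). The Ctr1B call ended without any 1 of the 6 libraries (up to 0.213). The MTF-1 call ended without any 1 of the 6 libraries (up to 0.138).

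Further members of the lists were called outside these groups. Of all genes 3.63% were called higher and 1.79% lower. Calls were 1 higher and 1 lower of 19 esterase genes and 1 higher of 16 UDP-glycosyltransferase genes. Of 23 cuticle protein genes 2 were called higher, while 18 had negative fold changes (median -0.58). Of 10 odorant-binding genes 1 was called higher and 1 lower, while 9 had negative fold changes. Of the P450 genes, Cyp309a2 (21, 18.4 and 29.5 CPM in the InRi-labelled libraries, against 1.77, 1.77 and 3.27 CPM in control, log2 fold change 3.51, adjusted p = 0.00427) held in each omission (up to 0.0489). The other 8 P450 calls not yet given had log2 fold changes between -2.47 (Cyp6a21) and 1.59 (Cyp6a22): Cyp9h1, Cyp6t1, Cyp309a1, Cyp6a23 and Cyp28a5 with Cyp6a21 were lower, Cyp9b1 and Cyp6a22 higher, and each was lost in at least 2 of the 6 omissions. The esterase gene alpha-Est8 stood at 257, 314 and 227 CPM in the InRi-labelled libraries, against 31.5, 45.9 and 65.3 CPM in control (log2 fold change 2.51 ± 0.39, adjusted p = 0.00315). CG17323, a UDP-glycosyltransferase gene (Ugt36D1), stood at 339, 462 and 352 CPM in the InRi-labelled libraries, against 85.2, 123 and 78.4 CPM in control (log2 fold change 2.01 ± 0.29, adjusted p = 0.00202). The chitin-binding protein gene obst-J stood at 243, 229.8 and 233 CPM in the InRi-labelled libraries, against 10.3, 22.6 and 17.4 CPM in control (log2 fold change 3.82 ± 0.47, adjusted p = 0.00108), and the gap junction gene inx7 at 721, 665 and 468 CPM in the InRi-labelled libraries, against 51.1, 156 and 178 CPM in control (log2 fold change 2.28 ± 0.43, adjusted p = 0.00909). CG9509 (fiz), a glucose-methanol-choline oxidoreductase gene, was lower, at 29.9, 48.3 and 46.6 CPM in the InRi-labelled libraries, against 331, 421 and 237 CPM in control (log2 fold change -2.99 ± 0.38, adjusted p = 0.00108). LysC, a lysozyme family gene, stood at 6.4, 5.32 and 9 CPM in the InRi-labelled libraries, against 0.394, 0.665 and 0 CPM in control (log2 fold change 3.78, adjusted p = 0.00277). All 6 of these held in each omission (adjusted p up to 0.04). Lysozyme genes gave 1 call of 6, higher. In lists written after values were seen, 1 of 4 innexins and 1 of 3 prolyl hydroxylases were called higher. Of 7 glucose-methanol-choline oxidoreductases, also such a list, 2 were called lower. Juvenile hormone genes gave 1 call of 8, lower. Jheh3, a juvenile hormone epoxide hydrolase gene, was lower (87.7 ± 14 CPM in InRi-labelled and 183 ± 36.4 CPM in control libraries, adjusted p = 0.0356) and lost without any 1 of the 6 (up to 0.171). PH4alphaPV, a prolyl hydroxylase subunit gene, stood at 33.3, 19.6 and 18.3 CPM in the InRi-labelled libraries, against 0.394, 1.11 and 1.09 CPM in control (log2 fold change 4.89, adjusted p = 0.0123), and Obp49a, an odorant-binding family gene, at 21.2, 241 and 91.6 CPM in the InRi-labelled libraries, against 0.394, 1.33 and 2.18 CPM in control (log2 fold change 6.85, adjusted p = 0.00688), both lost without control replicate 1 or 2 (up to 0.102 and 0.0613).

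By size, the 15 largest rises among genes with at least 5 CPM were 9 Bomanins, 2 Daisho genes, CG43175, CG17999, CG14515 and CG1208. CG1208, which encodes a sugar transporter family protein, stood at 126, 88.9 and 92.5 CPM in the InRi-labelled libraries, against 0.197, 0.443 and 0 CPM in control (371-fold, counting interval 127 to 1803), and CG14515 at 38.1, 42.3 and 42.9 CPM in the InRi-labelled libraries, against 0, 0.222 and 0 CPM in control (426-fold, counting interval 76.2 to 16876). The 15 largest falls held 7 salivary gland markers. Of the rest, CG7587 is a glue protein relative (Sgs5bis) and Lsp1alpha and Yp3 are described above. CG34279 stood at 0.356, 0 and 0.621 CPM in the InRi-labelled libraries, against 72.2, 65.4 and 40.3 CPM in control (log2 fold change -7.47 ± 0.94, adjusted p = 0.00108). The receptor family gene mthl8 had 0 counts in the InRi-labelled libraries and 6.31, 3.32 and 5.45 CPM in control, at least 21.4-fold lower against 3 counts over the group. CG7606, CG42460 and CG15404 were lower by log2 fold changes of -6.12, -5.18 and -4.98 (adjusted p = 0.0148, 0.0373 and 0.0199). In each of these 3, InRi replicate 3 was the highest of its group, as it was for the glue genes. Sgs7 had a log2 fold change of -6.72 on 0.7 M and -1.48 on 0.15 M (unadjusted p of the difference 0.0079, which did not pass adjustment). The Sgs7 call ended without InRi replicate 1 or 2 or control replicate 1 or 2 (up to 0.0821). The mthl8 call ended without InRi replicate 1 or 2 or control replicate 1 (up to 0.0831). The CG7606 call ended without InRi replicate 1 or 2 or control replicate 1 or 2 (up to 0.0804). The CG42460 call ended without any 1 of the 6 libraries (up to 0.168). The CG15404 call ended without InRi replicate 1 or 2 or control replicate 1 or 2 (up to 0.102). CG34279, CG1208 and CG14515 held in each omission (up to 0.0176).

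The same cross on 0.15 M sucrose gave 150 calls (1.73% of genes tested), of which 106 were among the 469 of 0.7 M sucrose, 22.6% of the one list and 70.7% of the other, all 106 in the same direction. Of the 469 genes, 452 had the same sign on both diets and 17 the opposite. The share of same signs over all genes tested is not given here, so this count is not read as particular to the called genes. The 2 comparisons share no library but share the estimate of the spread. A test of the difference between diets gave 0 calls in edgeR, with 456 genes at an unadjusted p under 0.05, and 17 in DESeq2 (10 higher and 7 lower, with 559 at an unadjusted p under 0.05). Ilp6 had a log2 fold change of 1.92 on 0.7 M and 1.80 on 0.15 M, and bmm 1.86 and 1.33. Yp3 had -5.58 and -5.44, while Lsp1alpha had -6.41 and -2.52 (unadjusted p of the difference 8.4e-05) and sad 4.14 and 0.59 (0.0007). TotC had 2.94 on 0.7 M and 5.62 on 0.15 M (0.011). The genes given with an unadjusted p of the difference, here and above, were picked by calls on 0.7 M sucrose. Those values enter the difference, so these p cannot decide whether the diets differ.

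**Figure D5:**
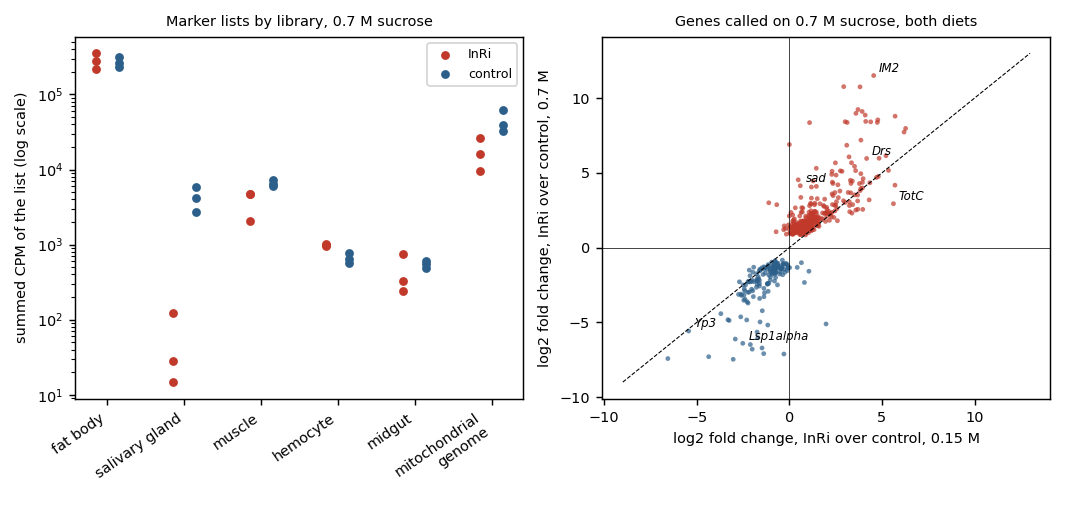
Left, summed CPM (log scale) of marker lists in each library on 0.7 M sucrose, with InRi-labelled libraries in red and controls in blue; right, log2 fold change of the 469 called genes on 0.7 M (vertical) against 0.15 M sucrose (horizontal), with the line of equal values dashed. Salivary gland markers sum to between 14.7 and 121 CPM in the InRi-labelled libraries and between 2735 and 5791 CPM in control, and 452 of the 469 genes have the same sign on both diets. The share of same signs over all genes tested is not given.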

How the data were processed

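The measurements are read counts per gene, deposited by the authors as whole numbers in 1 table for 12 libraries. Per the submitters' processing notes, TopHat 1.3.2, Bowtie 0.12.7, Cufflinks 1.1.0 and the genome build dm3 were used. Which tool made the counts, and whether it used strand, is not given in the sources used here. Libraries were placed in 4 groups of 3 by their labels.

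Genes were kept by edgeR's filter (minimum count 10, total 15), which left 8662 of 15222. A gene near 0 in control on 0.7 M sucrose passes this filter only through other libraries in which it is higher. Libraries were scaled by TMM, and CPM are on the scaled library sizes. InRi minus control on 0.7 M sucrose was tested with edgeR 4.0.16 (R 4.3.3), quasi-likelihood, all 12 libraries in 1 fit of 4 groups, with Benjamini-Hochberg adjustment over all genes tested and a threshold of 0.05. The common dispersion was 0.107. Standard errors were taken from the fold change and its F value. Where a group held 0 to 3 counts over its libraries, the ratio of summed counts is given with an exact 95% interval, and 0 was set to 3 counts for a lower bound. Intervals and bounds cover counting error only.

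The members and lists were chosen with earlier results of these data known. The genes named are InR, svp, the 15 largest rises and falls with at least 5 CPM and no overlap of the groups, the called members of the lists and up to 4 further members with the smallest p. Those of the lists written after values were seen, and the cotransporter, innexin, prolyl hydroxylase and oxidoreductase genes with them, were chosen after their values were seen. Alternatives were DESeq2 1.42.0, its size factors, no filter, the 6 libraries alone, a replicate block, each library left out and a threshold of 0.10. A result on 1 gene is not reported here. No sequence was printed, since none was given with the files.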

Additional observations from a re-analysis of the deposited data

How the results depend on the processing

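The main analysis called 469 genes, 314 higher and 155 lower. Counts within 1.5 times came from DESeq2's size factors (470, 461 of the 469 among them) and from no filter (452, 425 of the 469). DESeq2 called 836 (556 higher and 280 lower, with 468 of the 469), and a threshold of 0.10 gave 747. The 6 libraries alone gave 1700 (991 and 709), and without control 0.15 M replicate 2 there were 1643 (978 and 665), both with all 469. Replicate numbers did not pair the libraries: same-numbered libraries had correlations of deviations of -0.0814, 0.161 and -0.0621. A replicate block called 305 (208 and 97), 301 of them among the 469. With each library of the 0.7 M groups left out, the counts ran from 137 to 291, with 83 to 216 higher and 44 to 96 lower; counted with control 0.15 M replicate 2, the highest were 1643, 978 and 665. For InR the log2 fold change ran from 1.31 to 1.58 in the omissions. The difference between diets gave 0 calls in edgeR in each omission but 1, with 1 call without control 0.15 M replicate 2, and 17 in DESeq2. Of 162 genes named in the text, none changed sign under these alternatives. Of them 15 that were not called were called with the 6 libraries alone, 2 calls were lost with DESeq2's size factors, 13 with no filter and 42 with the block. The cause was not tested. Control replicate 3 had 872755 counts, in which 3 counts are 3.27 CPM, so genes at a few CPM in control are not well resolved in it.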

Other observations

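Some gene groups gave no call on 0.7 M sucrose, at the background of 5.41%. None of 26 aminoacyl-tRNA synthetase genes was called (median log2 fold change -0.16), nor any of 16 heat shock protein genes (-0.30), 21 vacuolar ATPase genes (0.01) or 30 genes of DNA replication and the endocycle (-0.24). With the 6 libraries alone, 4 of 15 heat shock protein genes were called higher and 4 lower, against 12.1% and 8.67% of all genes. Of 24 Jonah and trypsin protease genes, which are gut enzymes, 0 were called and 22 had negative fold changes. Markers of midgut (16), nervous system (10), trachea (6), imaginal disc (8) and Malpighian tubule (9) gave 0 calls each.

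Single genes outside the main groups were called. CG17999 stood at 192, 100.30 and 119 CPM in the InRi-labelled libraries, against 0.591, 0 and 0 CPM in control (506-fold, counting interval 173 to 2457), and the call held in each omission (adjusted p up to 0.026). The piRNA pathway gene piwi, a germline marker, stood at 3.02, 8.94 and 2.17 CPM in the InRi-labelled libraries, against 0.197, 0.222 and 0 CPM in control, which are 61 counts in InRi-labelled and 2 counts in control libraries (24.7-fold, counting interval 6.55 to 208). It shares exonic positions with SCAR, and its call ended without control replicate 1 or 2 (up to 0.0781). Of 24 ribosome biogenesis genes 2 were called higher, CG8801 and ns2, while 21 had negative fold changes (median log2 fold change -0.39) and in 9 every InRi-labelled library was below every control. CG8801 (Non1) stood at 1064, 1109 and 1075 CPM in the InRi-labelled libraries, against 421, 442 and 486 CPM in control (log2 fold change 1.27 ± 0.28, adjusted p = 0.0197), a call that ended without any 1 of the 6 libraries (up to 0.103). The gene ns2, which overlaps CG14480 on the opposite strand and is uncertain, stood at 47.4 ± 4.14 CPM in InRi-labelled and 26.1 ± 3.26 CPM in control libraries (log2 fold change 0.85, adjusted p = 0.0382), a call that ended without any 1 of the 6 libraries (up to 0.146).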
